A study of Mus musculus with 6 samples.

Results

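The 10 genes described here encode subunits of the transcription factor NF-kB, proteins that hold it back and enzymes that set its upstream signal: Nfkb1, Nfkb2, Rela, Relb, Nfkbia, Nfkbie, Nfkbiz, Tnfaip3, Birc3 and Map3k14. They were taken by gene symbol, and all 10 had a row in both deposited tables, out of 11024 genes with EnnA and 11305 with 17-AAG. RNA was sequenced from the murine breast cancer line E0771, whose strain background is C57BL/6, grown for 48 h in RPMI-1640 with serum. Of 6 libraries, 2 came from cells given Enniatin A (EnnA, 7.4 µM, 24 h), a cyclic depsipeptide made by Fusarium fungi, 2 from cells given 17-AAG (0.5 µM, 24 h), a geldanamycin derivative that binds the chaperone HSP90, and 2 from cells with the solvent DMSO, for which no time is stated. The series is about HSP90 inhibition together with immune activation, and each compound was compared with DMSO. The authors deposited 1 FPKM value (fragments per transcript length and library size) per gene and group, pooled over 2 libraries, so a level carries no SD here, no value per library is given, and depth is unknown.

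NF-kB dimers are kept in the cytoplasm by inhibitor proteins of the IkB family. In the canonical pathway, signals from receptors such as those for TNF and interleukin 1 activate the IKK kinase complex, which marks the inhibitors for destruction and frees dimers that hold RelA. In the noncanonical pathway the kinase NIK, encoded by Map3k14, accumulates and drives processing of the Nfkb2 product, which frees dimers that hold RelB. NF-kB switches on genes of its own inhibitors, among them Nfkbia and Tnfaip3, so their transcripts are widely read as signs of the pathway, and it also acts on Relb and Nfkb2 themselves.

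With EnnA, 7 of the 10 genes were higher than with DMSO and 0 were lower by the authors' deposited table (threshold q = 0.05), where 49.2% of all genes were called, 24.3% as higher and 24.9% as lower. The largest changes were those of the inhibitor genes Nfkbia and Tnfaip3 and the subunit gene Relb. With 17-AAG, 2 of the 10 were higher, Map3k14 and Nfkbie, and 0 were lower, where 31.6% of all genes in the authors' deposited table were called, 15.6% as higher and 16.1% as lower. The 2 of 10 with 17-AAG are close to the share over all genes. At an unadjusted p under 0.05 in the authors' deposited tables, 8 of the 10 passed with EnnA, 1 of them lower (Nfkb1), and 3 with 17-AAG, 1 of them lower (Nfkbiz). Over all genes, 6001 of 11024 passed that cut with EnnA and 4682 of 11305 with 17-AAG. The median log2 change of the 10 genes, computed after adding 1 FPKM to both values, was 0.48 with EnnA and 0.08 with 17-AAG, beside -0.01 over all genes of either table.

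**Figure D1:**
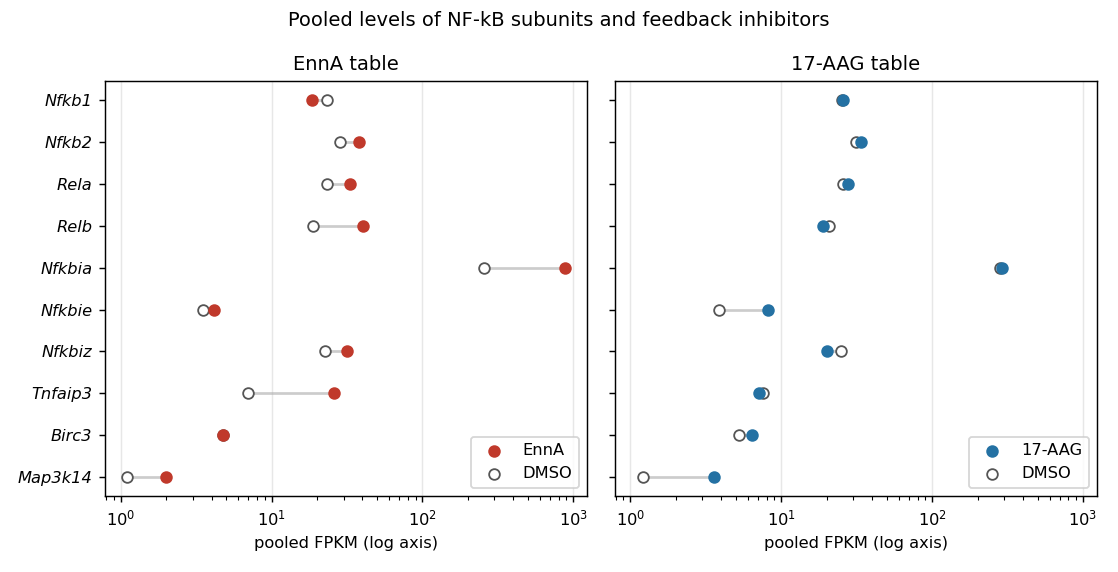
Pooled FPKM on a log axis for the 10 genes, in the EnnA table (left) and the 17-AAG table (right). Filled points are the compound, open points DMSO, and each point is the authors' value for 2 pooled libraries. Nfkbia, Tnfaip3 and Relb lie clearly apart from DMSO in the EnnA panel, and Nfkbie and Map3k14 in the 17-AAG panel.

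NF-kB acts through short sites in promoters, and the promoter windows of Nfkbia, Tnfaip3 and Nfkb2 are shown, which reach from 250 bases before a RefSeq transcript start to 50 bases past it. These are the genes called higher with EnnA whose window holds such a site. Tnfaip3 has 2 windows and Nfkb2 has 3, of which 1 each is shown. RefSeq sequence of build GRCm38.p6 was used, which differs from the mm9 build of the deposited loci. Capitals mark matches, on either strand, to a narrow motif, which is GGG followed by any 3 bases and then TTCC, or to the kB consensus, the general binding motif of NF-kB dimers, with overlapping matches joined. The windows are chr12:55492598-55492897 (minus strand) for Nfkbia, chr10:19015361-19015660 (minus strand) for Tnfaip3 and chr19:46304487-46304786 (plus strand) for Nfkb2, each written on the strand of the gene.
Nfkbia: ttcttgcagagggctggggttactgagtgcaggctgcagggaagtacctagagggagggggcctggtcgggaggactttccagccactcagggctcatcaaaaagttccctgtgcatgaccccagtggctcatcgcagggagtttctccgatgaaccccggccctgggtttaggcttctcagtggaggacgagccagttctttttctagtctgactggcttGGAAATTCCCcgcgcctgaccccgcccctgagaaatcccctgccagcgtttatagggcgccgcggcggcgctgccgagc
Tnfaip3: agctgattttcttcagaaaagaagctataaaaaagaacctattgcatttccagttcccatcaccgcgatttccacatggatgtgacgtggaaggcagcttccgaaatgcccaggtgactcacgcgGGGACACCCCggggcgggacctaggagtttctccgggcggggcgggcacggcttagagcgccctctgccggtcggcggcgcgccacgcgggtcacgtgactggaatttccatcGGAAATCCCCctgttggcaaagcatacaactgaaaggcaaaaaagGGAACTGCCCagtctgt
Nfkb2: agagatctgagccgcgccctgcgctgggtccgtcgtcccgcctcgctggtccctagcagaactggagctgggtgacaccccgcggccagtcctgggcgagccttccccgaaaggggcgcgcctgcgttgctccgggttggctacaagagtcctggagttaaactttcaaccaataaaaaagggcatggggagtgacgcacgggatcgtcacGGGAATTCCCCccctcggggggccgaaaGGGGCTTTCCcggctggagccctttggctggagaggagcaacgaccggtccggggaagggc

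The Nfkbia window held 1 match, GGAAATTCCC, at 29 to 20 bases before the transcript start. The Tnfaip3 window held 3, of which GGAAATCCCC lay at 12 to 3 bases before the start, GGGACACCCC at 125 to 116 bases before it and GGAACTGCCC at 33 to 42 bases after it. The Nfkb2 window held 2, GGGAATTCCCC at 39 to 29 bases and GGGGCTTTCC at 11 to 2 bases before the start. Windows were at hand for 7 of the 10 genes, and 4 of the 7 held a match to either motif: these 3 and Nfkbie, with GGGGGATTCC at 106 to 97 bases before its start. Taken alone, the narrow motif was matched in 4 of the 7 and the kB consensus also in 4. Among all 32851 windows of 300 bases, 5.56% held the narrow motif and 8.46% held the kB consensus. Counted by gene, as Nfkb2 and Tnfaip3 have several windows, 7.44% of 8243 genes of the EnnA table held the narrow motif in any window and 12.3% held the kB consensus. The windows of Rela, Birc3 and Map3k14 held no match to these letters. Genes with a match moved differently: Nfkbia and Tnfaip3 rose with EnnA, whereas Nfkbie was called with 17-AAG and not with EnnA.

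Among the subunit genes, Relb rose most with EnnA. Relb, whose product pairs with the processed Nfkb2 product in the noncanonical pathway, had 40.6 FPKM with EnnA against 18.9 FPKM with DMSO, a log2 change of 1.06 after adding 1 FPKM. Its q in the authors' deposited table was 0.000207, the lowest that table holds. That q is shared by the 2660 genes at the lowest p, so it does not rank Relb among them. The authors' own log2 change of Relb was 1.10, with a standard error implied by their p of at most 0.27. An implied error is the size of the log2 change over the normal quantile of p, and it is an upper limit for genes at the lowest p. It belongs to the authors' own log2 change, which at 10 FPKM or more is close to the log2 change with 1 FPKM added.

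Rela, which encodes the main activating subunit of the canonical pathway, had 33.2 FPKM with EnnA against 23.3 FPKM with DMSO (log2 change 0.50, implied SE 0.15, q = 0.00152 in the authors' deposited table). Nfkb2 had 38.1 FPKM with EnnA against 28.5 FPKM with DMSO (log2 change 0.40, implied SE 0.16, q = 0.0209 in the authors' deposited table). In mm9, Nfkb2 (chr19:46379226-46401646) shares its deposited locus with Psd, so its value is uncertain, whereas none of the other 9 genes shares a locus with another listed gene. Both rises were smaller than that of Relb. Nfkb1, the precursor of the subunit that most often pairs with RelA, was the only subunit with a lower value, 18.5 FPKM with EnnA against 23.2 FPKM with DMSO, and it was not called (log2 change -0.31, implied SE 0.15, q = 0.0613 in the authors' deposited table).

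The 4 subunit genes summed to 130.4 FPKM with EnnA and 93.9 FPKM with DMSO, and Relb made up 31.1% of that sum with EnnA and 20.2% with DMSO. With DMSO in the EnnA table they lay close together, from 18.9 FPKM for Relb to 28.5 FPKM for Nfkb2, with Rela and Nfkb1 at 23.3 and 23.2 FPKM between them. With EnnA the order, from the highest, was Relb, Nfkb2, Rela and Nfkb1. Relb and Nfkb2 lay close together at 40.6 and 38.1 FPKM, and no test between genes was made. In bulk RNA, more cells that express a gene and more RNA per cell cannot be told apart.

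None of the subunit genes was called with 17-AAG. Relb had 19.0 FPKM with 17-AAG against 20.7 FPKM with DMSO (log2 change -0.12, implied SE 0.15). Rela had 27.9 FPKM with 17-AAG against 25.5 FPKM with DMSO (log2 change 0.13, implied SE 0.15). Nfkb1 and Nfkb2 had log2 changes of 0.02 and 0.11, with implied errors of 0.15 each. All 4 changes lay within their implied error of 0. The 95% interval for the authors' log2 change of Relb ran from -0.43 to 0.18, and that of Rela from -0.17 to 0.43. A Relb change of the size seen with EnnA (1.10) lies outside the Relb interval, as does any rise above 0.18, while smaller rises lie inside it.

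The inhibitor genes split by compound. Nfkbia encodes IkB-alpha, the main inhibitor that is destroyed and then remade when the canonical pathway fires. Nfkbia had 884 FPKM with EnnA against 256 FPKM with DMSO, a log2 change of 1.79 (an implied SE of at most 0.44, q = 0.000207 in the authors' deposited table). Its change was at percentile 99.3 of all genes in the EnnA table, and its DMSO level at percentile 97.4. With 17-AAG, Nfkbia had 288 FPKM against 280.0 FPKM with DMSO (log2 change 0.04, implied SE 0.15, q = 0.858 in the authors' deposited table). The values of the 2 groups nearly coincide.

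Nfkbia was by far the most abundant of the 10 genes per length in every group. Its FPKM was 26.6 times that of Rela with EnnA, 10.3 times with 17-AAG and 11.0 times with DMSO. Set against the summed FPKM of the 4 subunit genes, Nfkbia was at 6.79 with EnnA and 2.72 with DMSO. In the other table the same ratio was 2.71 with 17-AAG and 2.72 with DMSO, almost equal.

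Nfkbie encodes IkB-epsilon, a slower feedback inhibitor. It had 8.15 FPKM with 17-AAG against 3.85 FPKM with DMSO (log2 change 0.92 with 1 FPKM added, and 1.08 with an implied SE of at most 0.27 on the authors' scale, q = 0.000453 in the authors' deposited table). With EnnA it had 4.17 FPKM against 3.51 FPKM with DMSO, which was not called (log2 change 0.20, implied SE 0.19, q = 0.277 in the authors' deposited table). Nfkbie stayed a minor transcript beside Nfkbia: it made up 0.47% of the summed FPKM of both with EnnA, 2.75% with 17-AAG and 1.36% with DMSO. Adding 1 FPKM makes the change of a low gene smaller than the plain ratio.

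Nfkbiz encodes IkB-zeta, an atypical nuclear member that is needed for a subset of target genes such as Lcn2. It had 31.8 FPKM with EnnA against 22.7 FPKM with DMSO (log2 change 0.47, implied SE 0.15, q = 0.00279 in the authors' deposited table). With 17-AAG it had the lower value, 20.2 FPKM against 24.8 FPKM with DMSO (log2 change -0.29, implied SE 0.15), and was not called, with p = 0.0469 and q = 0.115 in the authors' deposited table. The values thus lay on opposite sides of DMSO, and only the one with EnnA passed the threshold.

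Tnfaip3 encodes A20, a ubiquitin-editing enzyme that shuts down signalling from TNF and Toll-like receptors to IKK. It had 25.9 FPKM with EnnA against 6.95 FPKM with DMSO, a log2 change of 1.76, or 1.90 on the authors' scale with an implied SE of at most 0.47 (q = 0.000207 in the authors' deposited table). In DMSO it was a gene of modest level, at percentile 32.0, and its change with EnnA was at percentile 99.3. With 17-AAG it had 7.14 FPKM against 7.62 FPKM with DMSO (log2 change -0.08, implied SE 0.16). That value was within its implied error of DMSO, and its sign turned when changes were centred on the genes of at least 10 FPKM (0.03).

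Birc3 encodes a ubiquitin ligase (cIAP2 in human) that works with TRAF proteins to keep NIK low, and it is a common NF-kB target. It was called with neither compound. Birc3 had 4.75 FPKM with EnnA against 4.79 FPKM with DMSO (log2 change -0.01, implied SE 0.17), and 6.37 FPKM with 17-AAG against 5.25 FPKM with DMSO (log2 change 0.24, implied SE 0.17). The 95% interval of its authors' log2 change with EnnA ran from -0.35 to 0.32, so a change of the size seen for Nfkbia or Tnfaip3 lies outside it.

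Map3k14, which encodes NIK, was the only one of the 10 genes called with both compounds, each against the same DMSO libraries. It had 1.99 FPKM with EnnA against 1.10 FPKM with DMSO, a log2 change of 0.51 with 1 FPKM added and 0.86 on the authors' scale (implied SE at most 0.21, q = 0.000207 in the authors' deposited table). With 17-AAG it had 3.59 FPKM against 1.20 FPKM with DMSO, a log2 change of 1.06 with 1 FPKM added and 1.58 on the authors' scale (implied SE at most 0.39, q = 0.000453 in the authors' deposited table). It was the lowest of the 10 genes in every group, at percentile 6.52 of DMSO levels in the EnnA table, so the added FPKM weighs most here.

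**Figure D2:**
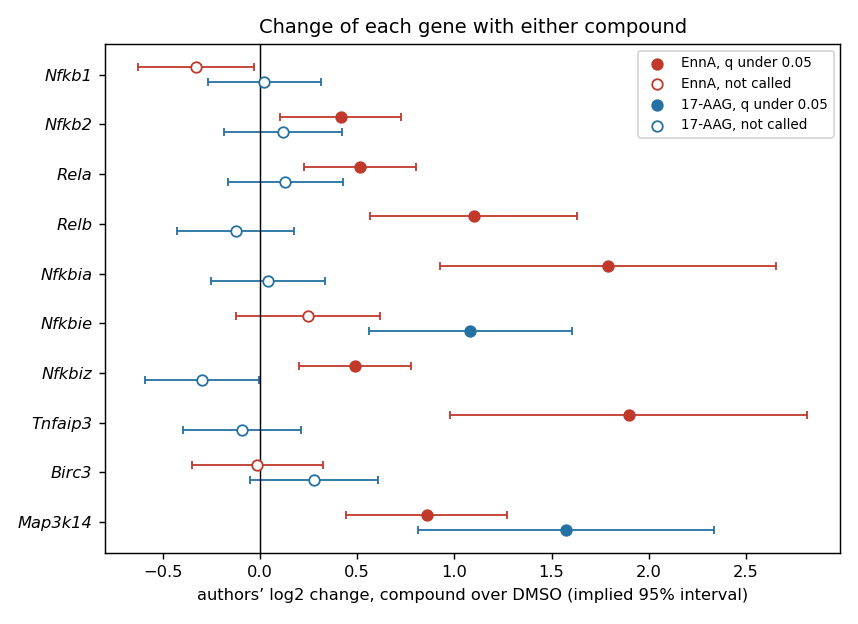
The authors' log2 change of each gene, compound over DMSO, with the 95% interval implied by their p (its width is an upper limit at the lowest p). Filled points passed q under 0.05. Relb, Nfkbia and Tnfaip3 stand above 1 with EnnA (1.10, 1.79 and 1.90) and near 0 with 17-AAG (-0.13, 0.04 and -0.09), while Nfkbie and Map3k14 stand at 1.08 and 1.58 with 17-AAG.

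In mm9, the authors' deposited tables place the genes with the largest changes at chr12:56590395-56593634 for Nfkbia, chr10:18720716-18735216 for Tnfaip3, chr7:20191570-20214787 for Relb, chr17:45692664-45700117 for Nfkbie and chr11:103081077-103128715 for Map3k14. Rela (chr19:5637489-5648130) and Nfkb2 lie on the same chromosome, and the other 8 genes lie on 8 different chromosomes. The counting base of the starts is not given.

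The compounds differed for 5 of the 10 genes when the difference itself was tested. For each gene in both tables the 17-AAG log2 change was subtracted from the EnnA log2 change and set against both implied errors in a z test, adjusted by Benjamini-Hochberg over 10922 genes, of which 38.2% were called, 19.3% as higher and 18.9% as lower with EnnA. Relative to DMSO, Tnfaip3, Nfkbia, Relb and Nfkbiz were higher with EnnA than with 17-AAG, and Nfkbie was lower. The differences of the authors' log2 changes were 1.99 for Tnfaip3 (implied SE at most 0.49), 1.75 for Nfkbia (at most 0.47), 1.22 for Relb (at most 0.31), 0.79 for Nfkbiz (0.21) and -0.83 for Nfkbie (at most 0.33). Rela, Nfkb2, Nfkb1 and Birc3 were not called, with differences of 0.39, 0.30, -0.35 and -0.29 and implied errors of 0.21, 0.22, 0.21 and 0.24. Map3k14 had a difference of -0.72 with an implied error of at most 0.44. Its p was the lowest possible with both compounds, so both errors are upper limits that grow with the change, and the test could not settle whether the compounds differed for it. Both changes share the DMSO libraries, and the dose of EnnA was 7.4 µM and that of 17-AAG 0.5 µM.

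**Figure D3:**
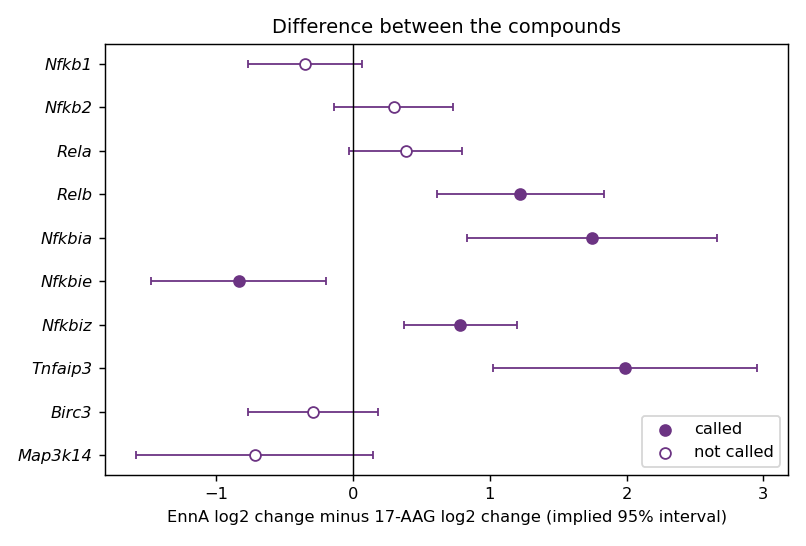
EnnA log2 change minus 17-AAG log2 change for each gene, with the 95% interval from the implied errors (its width is an upper limit where a change is at the lowest p). Filled points were called at an adjusted value under 0.05: Tnfaip3 (1.99), Nfkbia (1.75), Relb (1.22) and Nfkbiz (0.79) to the right of 0 and Nfkbie (-0.83) to the left.

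The DMSO columns of the tables differ by a constant: values in the 17-AAG table were 1.10 times those in the EnnA table, within 1% for 10931 of 10932 genes. Divided by that factor, Nfkbia with 17-AAG was at 263 FPKM and Tnfaip3 at 6.52 FPKM on the scale of the EnnA table, beside 884 and 25.9 FPKM with EnnA and 256 and 6.95 FPKM with DMSO. On that scale Map3k14 was at 3.28 FPKM and Nfkbie at 7.44 FPKM with 17-AAG, above both their EnnA values (1.99 and 4.17 FPKM) and their DMSO values (1.10 and 3.51 FPKM). For genes of at least 10 FPKM in both groups the median log2 change was 0.10 with EnnA and -0.11 with 17-AAG. When changes were taken relative to those medians and tested again with the implied errors, a choice made after seeing the data, 38.9% of called genes were higher with EnnA, against 49.3% as deposited, and 68.0% with 17-AAG, against 49.2%. Nfkb2 then lost its call with EnnA and Nfkb1 was called lower, while the other 6 rises with EnnA and both rises with 17-AAG kept theirs.

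The rest of the pathway was described by 6 lists written with earlier results of these data known. Over all genes, 24.3% were higher and 24.9% lower with EnnA, and 15.6% and 16.1% with 17-AAG. Among Rel and IkB family genes outside the 10, 3 of 5 listed were higher and 0 lower with EnnA, with a median log2 change of 0.38, and 2 of 5 were higher and 0 lower with 17-AAG, with a median of 0.06. At an unadjusted p under 0.05 in the authors' deposited tables, 0 were lower with EnnA and 1 with 17-AAG. That cut was passed, in either direction, by 6001 of all 11024 genes with EnnA and 4682 of 11305 with 17-AAG. Nfkbib, which encodes the inhibitor IkB-beta, had 98.9 FPKM with EnnA against 28.7 FPKM with DMSO (log2 change 1.75). With 17-AAG it had 25.1 FPKM against 31.5 FPKM with DMSO and was not called. Rel, the subunit best known from lymphocytes, had 11.5 FPKM with EnnA against 4.90 FPKM with DMSO (log2 change 1.08), and its 17-AAG value was not called (log2 change 0.06). In the test of the difference both were higher with EnnA, by 2.11 for Nfkbib (implied SE at most 0.47) and 1.15 for Rel (at most 0.35). Bcl3, an atypical IkB protein that binds dimers in the nucleus, rose with both, with log2 changes of 0.38 with EnnA and 0.76 with 17-AAG, and Nfkbil1, named for its likeness to IkB proteins, rose with 17-AAG (0.55). The call of Bcl3 with EnnA (q = 0.0424 in the authors' deposited table) was lost at a threshold of 0.01 and after centring on the genes of at least 10 FPKM, which left 2 genes of this list higher with EnnA.

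Ligands and receptors upstream went both ways with EnnA: 4 of 17 listed were higher and 8 lower (median log2 change -0.38). The share that was higher is close to the 24.3% over all genes, where 24.9% were lower. With a minimum of 1 FPKM in both groups 5 were lower. Tnf, the ligand that gives the canonical pathway its best-studied trigger, had 28.0 FPKM with EnnA against 8.52 FPKM with DMSO (log2 change 1.61). Receptor genes among the largest changes fell, Tlr4 by 1.43 and Il1r1 by 1.39 on the log2 scale, as did the ligand gene Tnfsf12, in a locus shared with Tnfsf13 and BC096441 that makes it uncertain (log2 change -1.09). With 17-AAG, 3 of 18 listed were higher and 5 lower (median -0.15), beside 15.6% and 16.1% of all genes. At a threshold of 0.01, 1 was higher and 5 lower. Cd40, a receptor of the noncanonical pathway, had 37.4 FPKM with 17-AAG against 64.3 FPKM with DMSO (log2 change -0.77), and Tnfrsf12a, Il1a and Il1rap had log2 changes of -0.84, -0.73 and -0.57. Tnfrsf12a is uncertain, as Thoc6 and Hcfc1r1 share its locus. Cd40 was higher with EnnA, at 115.9 FPKM against 58.7 FPKM with DMSO, and Tnf was lower with 17-AAG (log2 change -0.54). For both, the compounds differed in the test of the difference, by 1.76 (implied SE at most 0.31) for Cd40 and 2.32 (at most 0.46) for Tnf.

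Of 30 listed adaptor and kinase genes, 5 were higher and 9 lower with EnnA (median log2 change 0.02), and 2 were higher and 0 lower with 17-AAG (median 0.10), where 4 were higher and 2 lower at an unadjusted p under 0.05 in the authors' deposited table. The shares of all genes called higher and lower were 24.3% and 24.9% with EnnA, and 15.6% and 16.1% with 17-AAG. The unadjusted cut was passed, in either direction, by 4682 of all 11305 genes with 17-AAG. After centring on the genes of at least 10 FPKM, 7 genes of this list were higher and 0 lower with 17-AAG. Centring also raised the genes called higher in the whole table of 11305, from 1760 to 2494, and cut those called lower from 1815 to 1172. Ikbke, an IKK-related kinase of interferon induction, had 5.40 FPKM with EnnA against 17.5 FPKM with DMSO (log2 change -1.53). Irak2, a kinase downstream of interleukin 1 and Toll-like receptors, had 16.6 FPKM with EnnA against 5.92 FPKM with DMSO (log2 change 1.35). Tirap and Tradd, adaptors of Toll-like and TNF receptors, fell with EnnA (log2 changes -0.93 and -0.89). With 17-AAG the 2 called genes were Ticam1, the adaptor of the double-stranded RNA receptor TLR3, and Irak2, with log2 changes of 1.04 and 0.49. Of the IKK complex itself, Chuk was lower with EnnA (log2 change -0.39), and Ikbkb and Ikbkg were not called (-0.16 and 0.17). With 17-AAG, Chuk, Ikbkb and Ikbkg had log2 changes of -0.21, -0.05 and 0.16 and were not called. Ikbkg is uncertain for a locus shared with G6pdx. Chuk, Ikbkb and Ikbkg are named for their place in the complex and were chosen after their values were seen.

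Of 10 genes around NIK and the SCF ligase that destroys IkB proteins, 3 were higher and 3 lower with EnnA, and 0 were higher and 1 lower with 17-AAG, as at an unadjusted p under 0.05 in the authors' deposited table. The shares with EnnA are near those over all genes, 24.3% higher and 24.9% lower, which were 15.6% and 16.1% with 17-AAG. Traf2, which brings cIAP proteins to the NIK complex, had 39.8 FPKM with EnnA against 19.0 FPKM with DMSO (log2 change 1.03). The SCF genes Rbx1 and Skp1a changed in opposite directions with EnnA (0.60 and -0.56), and Xiap, an inhibitor of caspases, fell (-0.55). Traf1, a TRAF protein without a ligase domain, fell with 17-AAG (-0.75). Of 23 listed A20 partners and other negative regulators, 6 were higher and 3 lower with EnnA, and 2 were higher and 2 lower with 17-AAG, with medians of 0.00 and -0.04. The share of this list that was higher with EnnA is also close to the 24.3% over all genes. At an unadjusted p under 0.05 in the authors' deposited tables, 6 were higher and 8 lower with EnnA, and 2 were higher and 8 lower with 17-AAG. That cut was passed, in either direction, by 6001 of all 11024 genes with EnnA and 4682 of 11305 with 17-AAG. After centring on the genes of at least 10 FPKM this list had 5 higher and 8 lower with EnnA. Centring also raised the genes called lower in the whole table of 11024, from 2747 to 3322, and cut those called higher from 2675 to 2113. Atf3, a stress-induced transcription factor that can repress NF-kB targets, had 111.1 FPKM with EnnA against 15.9 FPKM with DMSO (log2 change 2.73), and with 17-AAG 27.5 FPKM against 17.5 FPKM with DMSO (log2 change 0.63). Tollip, an adaptor that dampens Toll-like receptor signals, rose with EnnA (0.85), the deubiquitinase gene Usp21 fell (-0.83), and Nlrx1, a mitochondrial regulator, fell with EnnA (-0.66) and rose with 17-AAG (0.57). Commd1, which promotes turnover of RelA, and Socs3, a feedback inhibitor of cytokine receptors, fell with 17-AAG (-0.80 and -0.52), and Commd1 is uncertain for a locus shared with Zrsr1.

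**Figure D4:**
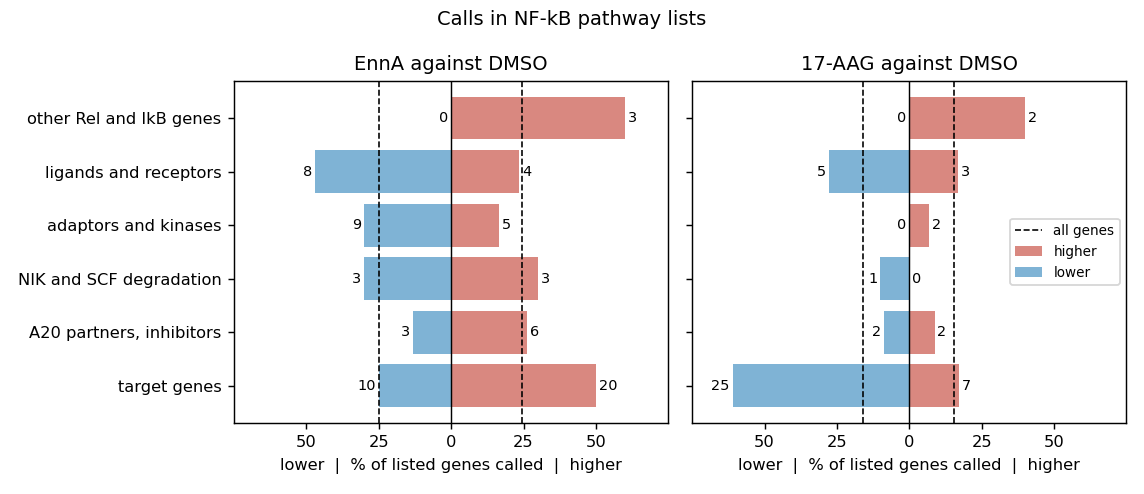
Share of listed genes called higher (to the right of 0) and lower (to the left) in each pathway list, with EnnA (left) and 17-AAG (right) against DMSO. Numbers give the genes called and dashed lines the shares over all genes (24.3% and 24.9% with EnnA, 15.6% and 16.1% with 17-AAG). Among target genes, 20 were higher with EnnA and 25 lower with 17-AAG.

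Target genes of NF-kB were more often higher than lower with EnnA, and more often lower than higher with 17-AAG. Of 40 listed with EnnA, 20 were higher and 10 lower (median log2 change 0.36), and of 41 listed with 17-AAG, 7 were higher and 25 lower (median -0.50). Over all genes, 24.3% were higher and 24.9% lower with EnnA, and 15.6% and 16.1% with 17-AAG. The targets lower with EnnA and those higher with 17-AAG are thus close to the shares over all genes. In the test of the difference, 17 of 40 were higher with EnnA than with 17-AAG and 3 were lower, beside 19.3% and 18.9% of all genes. The list was written with earlier results of these data known. After centring, the counts were 18 higher and 11 lower with EnnA and 8 higher and 22 lower with 17-AAG. Over all genes, 2113 of 11024 were then higher and 3322 lower with EnnA, and 2494 of 11305 higher and 1172 lower with 17-AAG.

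Il23a, encoding a subunit of interleukin 23, had 21.4 FPKM with EnnA against 2.43 FPKM with DMSO, and 1.21 FPKM with 17-AAG against 2.67 FPKM with DMSO. Lcn2, the iron-binding lipocalin whose induction depends on IkB-zeta, had 621 FPKM with EnnA against 108.8 FPKM with DMSO, and 51.5 FPKM with 17-AAG against 119.2 FPKM with DMSO. Ccl4, a chemokine, had 31.9 FPKM with EnnA against 7.29 FPKM with DMSO, and 4.68 FPKM with 17-AAG against 7.99 FPKM with DMSO. All 3 were called higher with EnnA and lower with 17-AAG, and the compounds differed by 4.28 for Il23a (implied SE at most 0.84), 3.72 for Lcn2 (at most 0.69) and 2.90 for Ccl4 (at most 0.59).

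Other targets moved in the same direction with both compounds. Gadd45b, a stress gene that restrains JNK signalling, had 117.9 FPKM with EnnA against 20.7 FPKM with DMSO (log2 change 2.45), and 52.3 FPKM with 17-AAG against 22.7 FPKM with DMSO (log2 change 1.17). The interferon-linked chemokine genes Cxcl10 and Ccl5 rose with EnnA (log2 changes 1.91 and 1.29) and with 17-AAG (1.77 and 1.77). Csf3, encoding granulocyte colony-stimulating factor, fell by 1.86 with EnnA and by 2.29 with 17-AAG on the log2 scale. Ier3, an immediate early gene, fell by 1.14 with EnnA and by 2.13 with 17-AAG. The differences between the compounds were 1.30, 0.14, -0.48, 0.58 and 0.99 for Gadd45b, Cxcl10, Ccl5, Csf3 and Ier3, with implied errors of at most 0.69, 0.66, 0.54, 0.87 and 0.60. All 5 genes were at the lowest p with both compounds, so the test could not settle whether the compounds differed for them.

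**Figure D5:**
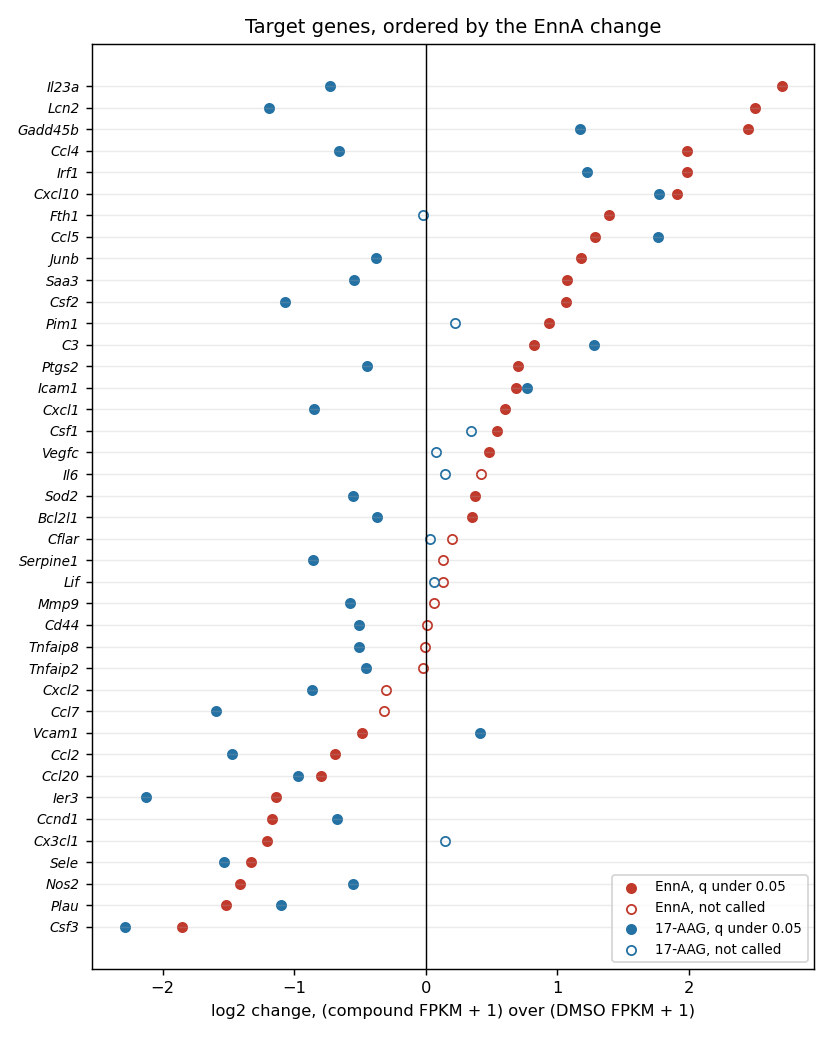
Log2 change after adding 1 FPKM for the 40 target genes listed in both tables, ordered by the change with EnnA. Filled points passed q under 0.05 in the authors' deposited tables. Il23a and Lcn2 lie at the right end with EnnA (2.71 and 2.50) and left of 0 with 17-AAG (-0.73 and -1.19), while Csf3 lies at the left end with both (-1.86 and -2.29).

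Markers of cell types were read for the same groups, and several of them changed. Of the luminal markers, Krt8 had 11.2 FPKM with EnnA against 17.7 FPKM with DMSO, and 29.3 FPKM with 17-AAG against 19.4 FPKM with DMSO, called lower with EnnA and higher with 17-AAG. Epcam had 1.85 FPKM with EnnA against 1.61 FPKM with DMSO and was called with neither compound. The luminal markers Esr1 and Gata3 went the other way from Krt8 with EnnA, at low levels. Esr1 had 1.57 FPKM with EnnA against 0.56 FPKM with DMSO, and Gata3 0.59 FPKM against 0.16 FPKM, both called higher. Esr1 was also called higher with 17-AAG, at 1.09 FPKM against 0.61 FPKM with DMSO, where Gata3 had no row. Krt18, Krt19 and Cdh1 and the basal markers Krt5, Krt14 and Trp63 had no row, so the label of a breast cancer line rests on few epithelial markers here. The mesenchymal marker Vim had 1209 FPKM with EnnA against 2746 FPKM with DMSO, and 2154 FPKM with 17-AAG against 3009 FPKM with DMSO, called lower with both. Acta2, an actin of smooth muscle and myoepithelium, had 34.5 FPKM with EnnA against 133.1 FPKM with DMSO (log2 change -1.92), and was not called with 17-AAG (0.21). Of 7 fibroblast markers, 4 were listed, and they went both ways with EnnA. Col3a1 had 27.3 FPKM with EnnA against 63.7 FPKM with DMSO, called lower, and Pdgfra had 26.5 FPKM with EnnA against 10.1 FPKM with DMSO, called higher. Neither was called with 17-AAG, where Col1a1 was higher at a low level, 3.95 FPKM with 17-AAG against 0.62 FPKM with DMSO. Col1a1 was not called with EnnA. Pdgfrb was called higher with both compounds, at 7.16 FPKM with EnnA against 4.75 FPKM with DMSO. With 17-AAG, Pdgfrb had 7.15 FPKM against 5.2 FPKM with DMSO.

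Of 10 myeloid markers, 3 were listed (Cd68, Lyz2 and Cd14), and the other 7, Ptprc, Itgam, Adgre1 and Csf1r among them, had no row. The 3 summed to 99.6 FPKM with EnnA against 52.7 FPKM with DMSO, and to 34.9 FPKM with 17-AAG against 57.7 FPKM with DMSO. With EnnA, Cd68 carried the sum and the others did not follow it. Cd68 had 89.2 FPKM with EnnA against 38.0 FPKM with DMSO, called higher, and 17.1 FPKM with 17-AAG against 41.6 FPKM with DMSO, called lower. Lyz2 had 8.73 FPKM with EnnA against 12.2 FPKM with DMSO, called lower, and 15.8 FPKM with 17-AAG against 13.3 FPKM with DMSO, not called. Cd14 had 1.70 FPKM with EnnA against 2.58 FPKM with DMSO, and 1.94 FPKM with 17-AAG against 2.82 FPKM with DMSO, called with neither. Of 9 lymphoid and 5 endothelial markers, 0 were listed. The part of these marker changes in the NF-kB results was not tested.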

How the data were processed

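RNA of 6 libraries, 2 per group, was compared through 2 tables, each setting a compound against DMSO. STAR, Cufflinks, Cuffdiff and build mm9 are named in the submitters' processing notes, without versions. The authors deposited FPKM values pooled over both libraries of a group. The log2 fold change in the deposited tables runs DMSO over compound, so its sign was turned. The p-value and q-value are the authors' own as deposited: the q equals the Benjamini-Hochberg adjustment of p over all genes of a table, and the lowest p is 5e-05. With pooled values, SD, depth, leaving out a library and any check of the spread between libraries were out of reach. Nothing states that the 2 libraries of a group were separate cultures. A p-value thus speaks only to these libraries, whose spread may be technical. How the authors' test set the spread of a single gene cannot be read from the deposited values.

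Computed here with Python 3.11.15, pandas 2.3.3 and scipy 1.17.1 were log2((compound + 1)/(DMSO + 1)), the implied standard error (of the authors' log2 change) and the z test between compounds. That test treats errors as independent although DMSO is shared, and it rests on a normal approximation, so single-gene differences carry no p. On simulated data with 10922 genes it recovered 18, 68, 92 and 94% of genes changed 1.5, 2, 4 and 8-fold between compounds and called 5 of 10722 unchanged ones. That noise came from the implied errors themselves, so it does not test them. The 10 genes, the 6 pathway lists and the 6 marker lists were chosen with earlier results of these data known. Named genes are the 10 genes and, per list and comparison, up to 4 called genes with the largest change and at least 1 FPKM in a group; examples beyond these are given as such. Older symbols were matched through RefSeq synonyms. Protein sequences were not used here. Alternatives were a threshold of 0.01, a 2-fold minimum on the log2 change with 1 FPKM added, a minimum of 1 FPKM in both groups, other pseudocounts and centring.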

Additional observations from a re-analysis of the deposited data

How the results depend on the processing

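No paired analysis was possible because the deposited columns pool both libraries of a group, and for the same reason the replicate block and leaving out a replicate were not run. At a threshold of 0.01, 6 of the 10 genes stayed higher with EnnA (Nfkb2 was lost) and both stayed higher with 17-AAG, while in the difference between compounds 0 genes were lower with EnnA, as Nfkbie was lost. With at least a 2-fold change after adding 1 FPKM, 3 genes were higher with EnnA (Relb, Nfkbia and Tnfaip3), 1 with 17-AAG (Map3k14), and 0 were lower in the difference. Without the added FPKM, Nfkbie with 17-AAG was also above 2-fold, at 2.12-fold. Over all pathway lists the 2-fold minimum left 17 genes higher and 11 lower with EnnA, of 41 and 33, and 6 higher and 8 lower with 17-AAG, of 16 and 33. No share over all genes is given at the 0.01 or 2-fold setting, so these counts cannot be set against one. Centring on genes of at least 10 FPKM made 1 gene lower with EnnA, Nfkb1. Fewer genes can pass a larger minimum by construction, and the cause of the other shifts was not tested. A minimum of 1 FPKM in both groups could not change the counts of the 10 genes. All their values lay above it, the lowest being 1.10 FPKM for Map3k14 with DMSO. Of 110 member changes under other pseudocounts, the authors' own log2, centring or 1 shared DMSO value, 109 kept their sign. The exception was Tnfaip3 with 17-AAG, uncalled, at 0.0296 after centring on the genes of at least 10 FPKM. Most of these signs were fixed in advance, so the count is no check. A pseudocount cannot change a sign, and the authors' own log2 follows the ratio of the same FPKM values. The DMSO columns differ by a constant, and centring on all genes moved changes by only about 0.01. Depth is unknown, so low genes such as Map3k14 have no floor beyond the implied errors.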

Other observations

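The genes whose pair of log2 changes lay nearest to that of Nfkbia, among 8424 genes with at least 5 FPKM in a group of each table, were Per1, Npc1 and Eif1, at Euclidean distances of 0.03, 0.04 and 0.05. Per1, a gene of the circadian clock, had 27.1 FPKM with EnnA against 7.31 FPKM with DMSO and 8.30 FPKM with 17-AAG against 8.01 FPKM with DMSO. Npc1, which moves cholesterol out of lysosomes, had 38.4 FPKM with EnnA against 10.7 FPKM with DMSO, and 12.0 FPKM with 17-AAG against 11.7 FPKM with DMSO. Nearest to Tnfaip3 were Ube2g2, a ubiquitin-conjugating enzyme of degradation at the endoplasmic reticulum, and again Npc1 and the translation initiation factor gene Eif1, at distances of 0.06, 0.11 and 0.09. Ube2g2 had 154.1 FPKM with EnnA against 46.1 FPKM with DMSO, and 49.3 FPKM with 17-AAG against 50.5 FPKM with DMSO. A likeness over 2 changes that share their DMSO libraries is a description only.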
